A study of Mus musculus with 6 samples.

Results

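The 35 genes described here encode lysosomal membrane proteins, lysosomal hydrolases, parts of the proton pump that acidifies the lysosome, and the MiT/TFE transcription factors with some of their regulators. They were listed by name, for their function, with results of the same comparison, BAPN against control, in these libraries already known, so their differences between the groups, and the calls of a fit over all genes given beside them, are a description and not evidence. All 35 were among the 18864 gene symbols in the table of counts. RNA was sequenced from cultured mouse satellite cells (skeletal muscle stem cells) isolated from the gastrocnemius muscle of C57Bl/6 mice, a strain that the strain entry spells C56Bl/6. The mice were 8 weeks old by the age entry and 6 weeks by the growth protocol, and no genetic change is labelled. In the BAPN group, 3 cultures were moved to differentiation medium with 0.25% BAPN (beta-aminopropionitrile, an inhibitor of lysyl oxidases, the enzymes that crosslink collagen and elastin) for 24 h, and in the control group 3 cultures were moved to the same medium without it. All 6 cultures were grown on 4% matrigel after fibroblasts had been reduced by repeated plating. The medium held 4% horse serum by the series description and 10% fetal calf serum by the growth protocol, and the replicates are labelled as biologically independent.

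Lysosomes are acidic compartments in which hydrolases break down material that arrives by endocytosis and autophagy. Many of their genes carry, near the start of transcription, an E-box element (the CLEAR motif, with TCACGTGA at its core) to which TFEB, TFE3 and MITF bind. When nutrients are plentiful, the kinase complex mTORC1, held at the lysosome by the Rag GTPases, phosphorylates these factors and keeps them in the cytosol, and folliculin (FLCN) with its partners FNIP1 or FNIP2 acts on RagC and RagD in that step. In muscle the pathway is known from storage disorders such as Pompe disease, in which acid alpha-glucosidase is missing.

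The motif was looked for in RefSeq promoter windows (build GRCm38.p6, 250 bases before to 50 bases after a transcript start), which were at hand for 30 of the 35 genes. The core CACGTG was in the windows of 9 genes (30% of 30), against 8.09% of the 27025 genes that have a window and 11.9% of the 10144 tested genes that have one. The longer TCACGTGA was in 4 (13.3%), against 1.12% and 2.21%, and TCACGTGA with a G before it and a C after it was in 0 of the 30, against 0.37% and 0.789%. All 3 motifs read the same on both strands, and each holds the shorter ones. The 4 promoters with TCACGTGA are printed, from 120 bases before to 30 bases after the start, because this is the element the MiT/TFE factors are known for. The capitals mark TCACGTGA. Ctsa is on the + strand at chr2:164833653-164833802, Ctsd on the - strand at chr7:142387798-142387947, Mcoln1 on the + strand at chr8:3500399-3500548 and Atp6v0d1 on the - strand at chr8:105566035-105566184.
Ctsa: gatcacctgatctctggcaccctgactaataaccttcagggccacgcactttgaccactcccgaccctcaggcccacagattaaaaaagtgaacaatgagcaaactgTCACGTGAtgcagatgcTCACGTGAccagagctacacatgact
Ctsd: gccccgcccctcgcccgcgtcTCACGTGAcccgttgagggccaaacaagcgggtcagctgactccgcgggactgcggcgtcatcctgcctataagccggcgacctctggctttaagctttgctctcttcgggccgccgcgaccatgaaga
Mcoln1: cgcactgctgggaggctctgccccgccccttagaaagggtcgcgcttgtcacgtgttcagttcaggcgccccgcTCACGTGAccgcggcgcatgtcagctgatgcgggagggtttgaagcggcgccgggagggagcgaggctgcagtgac
Atp6v0d1: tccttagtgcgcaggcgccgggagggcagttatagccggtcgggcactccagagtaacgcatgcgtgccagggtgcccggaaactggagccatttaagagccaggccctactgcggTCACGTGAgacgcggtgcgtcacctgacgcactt
In the Ctsa window, 1 of the 2 that RefSeq gives for that gene, the motif occurs in 2 copies, the first beginning 13 bases before the start and the other at base 5 of the transcript. It begins 99 bases before the start in Ctsd, 46 in Mcoln1 and 4 in Atp6v0d1. Mcoln1 has another CACGTG, in lower case, that begins 71 bases before the start. Ctsd also has another, beginning 245 bases before the start and so outside the printed stretch. A match is a run of letters and no evidence of binding, which was not measured.

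Library totals ran from 17125602 to 18617656 counts with BAPN and from 18335559 to 18682099 in controls, and the fit took in the 13714 genes whose normalized counts averaged 10 or more. A library is named by its group and replicate number (BAPN library 1). The cultures had the muscle markers of their label: Myod1, Myog, Des, Myh3, Cdh15, Actc1, Pax7 and Myf5 summed to a normalized count of 218326 to 276147 with BAPN and of 490605 to 671865 in controls. That sum was made up mostly of Myh3 and Actc1. Myod1, Myog, Des, Myh3, Cdh15 and Actc1 were each lower in every BAPN library. Pax7 (means 1429 with BAPN, 1220.5 in controls) and Myf5 (424 and 412.5) overlapped between the groups. Fibroblast markers, a sum made up mostly of Col1a1 and Col3a1, came to 3060 to 3755 with BAPN and 4810 to 6318 in controls. Pdgfra was higher with BAPN (53.88 to 85.2 against 30.95 to 53.86), but its lowest BAPN and highest control library were nearly equal. The means of Dcn and Pi16 were also higher with BAPN, with overlapping groups. Both sums differed between the groups without overlap, and their part in the results was not tested. In bulk RNA, fewer cells of a type and less RNA per cell cannot be told apart. Replicates 1 and 2 lay closer to each other than to replicate 3: their counts differed by a chi-square of 2.14 (BAPN) and 2.29 (control) per gene, against 20.2 to 23.8 for pairs with replicate 3, where counting noise alone gives about 1.

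Most of the 35 genes had more RNA with BAPN. Of the 34 that were tested, 31 had a log2 change above 0 and 3 below, the median was 0.37 and the range -0.58 to 2.32, beside a median of -0.03 over all 13714 genes. A gene is called here when the edgeR quasi-likelihood test gives a Benjamini-Hochberg adjusted p under 0.05 over all tested genes. By that measure 22 were called higher and 2 lower (Ctsz and Tfeb), where 15.6% of all tested genes were called higher and 20.8% lower. The 3 BAPN libraries were all above the 3 control libraries for 26 genes and all below for 2, where the shares over all tested genes were 22.5% and 28.6%. Since this comparison chose the genes, nothing is read from these counts, and a call of 1 of the 35 says only how its difference stands to the spread between libraries. The number called higher was 9 and the number called lower 0 when the close replicates 1 and 2 of each group were summed into 1 library, and the number called lower was 1 without BAPN library 1, BAPN library 2 or control library 1. With those replicates summed, the 9 called higher were Cd68, Npc1, Ctsa, Ctsl, Npc2, Sqstm1, Gpnmb, Tfe3 and Fnip2. Without both libraries of replicate 3, which leaves the close replicates 1 and 2, Cd63, Tpp1, Gaa, Asah1, Atp6ap1, Mitf and Rragd were called higher as well.

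**Figure D1:**
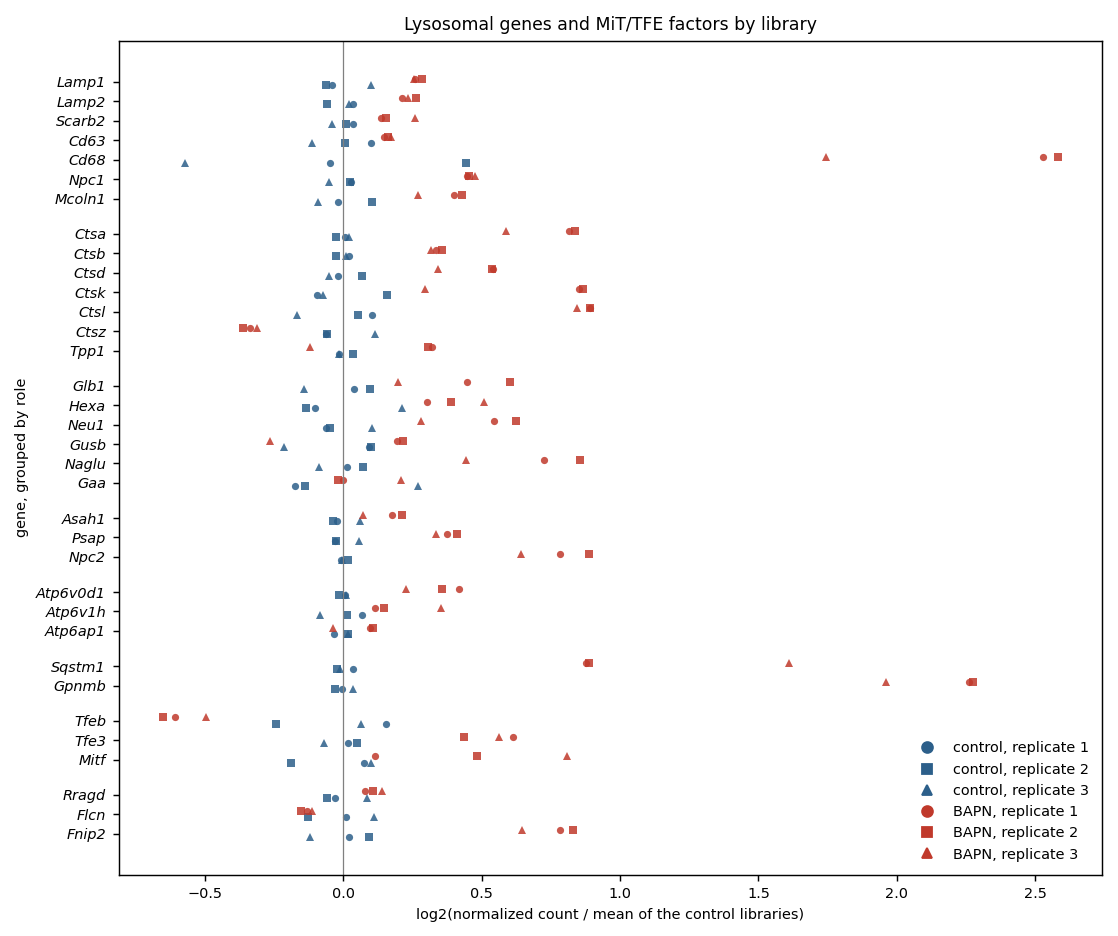
Each of the 34 tested genes is a row, grouped by role, and each point is 1 library (blue control, red BAPN; circle, square and triangle for replicates 1, 2 and 3) on the log2 scale relative to the mean of the controls. Cd68 and Gpnmb lie farthest to the right, Tfeb and Ctsz lie to the left, and the BAPN triangles of Sqstm1, Cd68 and Tpp1 stand apart from the circles and squares.

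Gpnmb, which encodes a heavily glycosylated membrane protein of late endosomes and lysosomes, differed most clearly between the groups. Its normalized count was 11639, 11744 and 9454 in BAPN libraries 1, 2 and 3 and 2417, 2378 and 2483 in the controls. The lowest BAPN library was above every control by a wide margin, and replicate 3 was the lowest of its group. The means were 10946 ± 1292 and 2426 ± 52.8 (SD, n = 3 each), a log2 change of 2.17 (SE 0.09). The gene spans chr6:49036546-49070929 (GRCm38, + strand) and shares no exonic sequence with another gene in GENCODE M21. Gpnmb is also known from melanocytes, Schwann cells and osteoclasts. Of the melanocyte markers, Dct had 0 counts in all 6 libraries and the 3 in the table summed to 7.45 to 15.5 with BAPN and 7.13 to 14.2 in controls. Schwann cell markers summed to 187 to 257 and 197 to 240, and osteoclast markers to 352 to 452 and 285 to 404, so the groups overlapped in each. Of the 7 osteoclast markers, 5 had a mean under 10, and Atp6v0d2, the pump subunit typical of osteoclasts, had 2, 5 and 5 counts with BAPN against 1, 1 and 2 in controls and was not tested.

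Sqstm1 encodes p62, the receptor that carries ubiquitinated cargo into autophagosomes. It had normalized counts of 20461, 20577 and 33993 with BAPN against 11391, 10958 and 11048 in controls. The groups did not overlap, and BAPN library 3 held 1.66 times the mean of the other 2 BAPN libraries. The means were 25010.2 ± 7779.6 and 11132 ± 228 (SD, n = 3 each), and the log2 change was 1.17 (SE 0.19), or 0.88 without BAPN library 3. Sqstm1 (chr11:50199366-50210827, - strand) shares exonic sequence with Mrnip on the opposite strand, and since the strand setting of the counting is not given, reads of the pair cannot be told apart.

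All 7 genes of lysosomal membrane proteins had every BAPN library above every control library, and 6 were called higher. Over all tested genes these shares were 22.5% and 15.6%. The largest difference was that of Cd68 (chr11:69664213-69666153), a heavily glycosylated relative of the LAMP proteins best known as a macrophage marker. Its normalized count was 237, 246 and 138 with BAPN against 39.7, 55.9 and 27.6 in controls, with replicate 3 lowest in both groups. That gave means of 207 ± 60.0 and 41.1 ± 14.2 (SD, n = 3 each) and a log2 change of 2.32 (SE 0.30). Other macrophage markers were scarce: 10 of 14 had a mean under 10, and Adgre1 had a normalized count of at most 2.07 in any library. The 14 summed to 228 to 277 with BAPN and 173 to 367 in controls. The sum of 367 was that of control library 3, against 205 and 173 in control libraries 1 and 2. Lyz2 (36.5), Csf1r (18.8) and C1qc (13.3) were highest in control library 3. Cd14 was higher with BAPN, as Cd68 was, with 158, 157 and 101 against 46.9, 34.6 and 37.6, while Itgam went the other way, with 42.1 to 66.3 against 82.3 to 156.

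**Figure D2:**
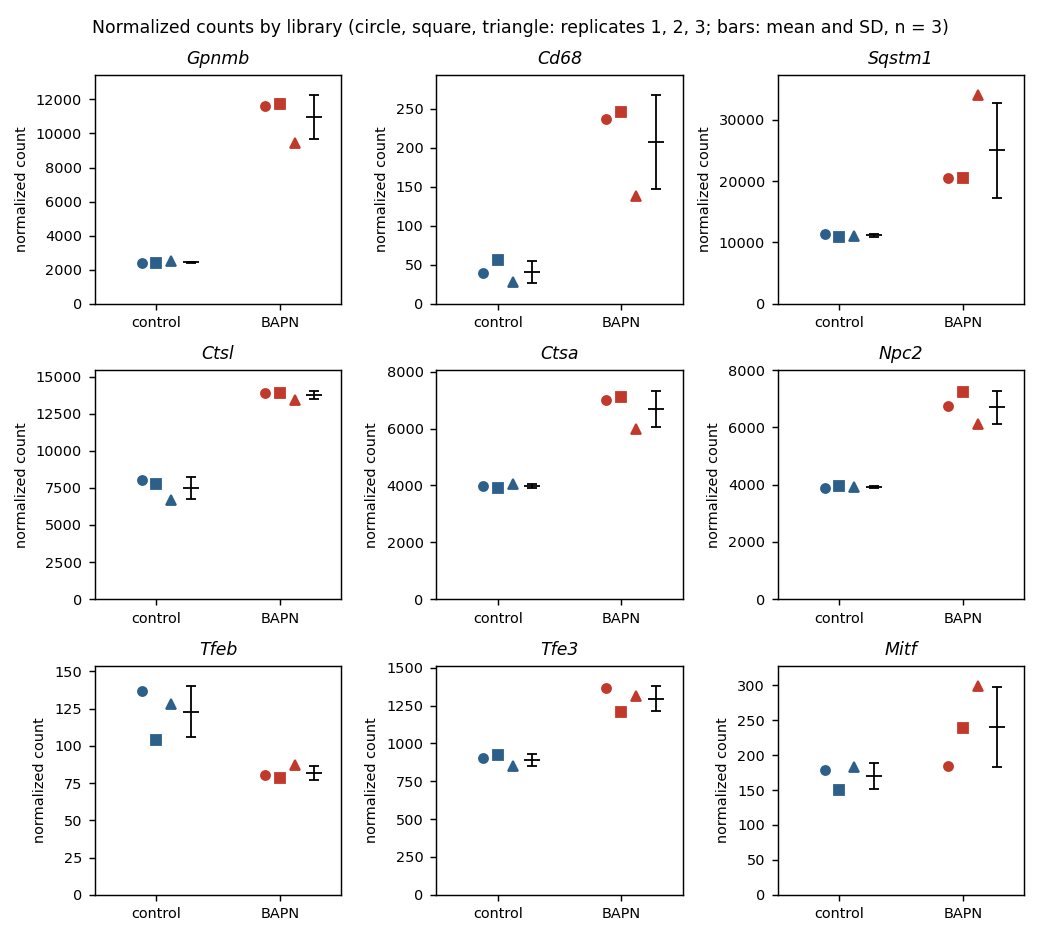
Normalized counts of 9 genes in each library, with the group mean and SD (n = 3) beside the points and every axis starting at 0. BAPN library 3 is the highest BAPN point for Sqstm1 and the lowest BAPN point for Gpnmb and Cd68, and Tfeb is the only gene of the 9 in which the BAPN points lie below the controls.

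Npc1, which moves cholesterol out of the lysosome, had 1911, 1920.5 and 1950.2 with BAPN against 1429, 1424 and 1353 in controls, without overlap, and a log2 change of 0.46 (SE 0.05). Mcoln1, the lysosomal calcium channel whose promoter is printed above, had 1696, 1732 and 1551 against 1269.5, 1383 and 1209, a log2 change of 0.37 (SE 0.07). Lamp1 and Lamp2, the main glycoproteins of the lysosomal membrane, differed less, by 0.27 (SE 0.07) and 0.24 (SE 0.06) on the log2 scale. Per kilobase of exonic sequence Lamp1 had the highest control level of the membrane group, at 6389 ± 393 normalized counts (SD, n = 3). Its normalized counts were 20457, 20822 and 20392 against 16624, 16355 and 18296. Scarb2, the receptor that delivers glucocerebrosidase, was higher by 0.18 (SE 0.06), and Cd63, a tetraspanin of late endosomes, by 0.16 (SE 0.07). The difference of Cd63 was not called by edgeR. It was called by DESeq2 as run here, but the authors' deposited adjusted p-value was above 0.05. Lamp1 lost its call without BAPN library 1, BAPN library 2, control library 1 or control library 2, Lamp2 without BAPN library 2 or control library 2, and Scarb2 whichever library was left out. The log2 change of Cd63 was 0.11 without control library 3.

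Among the 7 cathepsins and other proteases, 5 were called higher, 1 lower and 1 was not called. Of all tested genes, 15.6% were called higher and 20.8% lower. Ctsl, a cysteine protease (chr13:64359337-64370890, - strand), had normalized counts of 13916, 13918 and 13448 with BAPN against 8049.9, 7779.9 and 6671 in controls, a log2 change of 0.88 (SE 0.08). Ctsa, the protective protein that holds beta-galactosidase and neuraminidase in 1 complex, had 7004, 7107 and 5969.6 against 3995, 3901 and 4036 and a log2 change of 0.75 (SE 0.08). For each of these genes the groups lay well apart. Ctsd, the main aspartic protease, differed by 0.48 (SE 0.08) and Ctsb, a cysteine protease, by 0.34 (SE 0.06). Ctsk, the collagen-cutting cathepsin of osteoclasts, had few reads, with 60.9, 61.5 and 41.4 against 31.6, 37.6 and 32.1, and its difference of 0.70 (SE 0.21) was called with all 6 libraries, stayed called without BAPN library 3 and was not called without any other single library.

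Ctsz ran the other way. This carboxypeptidase had 2791, 2743 and 2842 with BAPN against 3378, 3390.4 and 3825 in controls, so that every BAPN library was below every control, with a log2 change of -0.34 (SE 0.07). It shares exonic sequence with Nelfcd on the opposite strand. Tpp1, a tripeptidase, was split by replicate: 4951 and 4893 in BAPN replicates 1 and 2 were above the controls (3915, 4057 and 3916), and 3645 in BAPN library 3 was below them. Its log2 change of 0.18 (SE 0.11) was not called, and without BAPN library 3 it was 0.31 and called. Without BAPN library 1 or BAPN library 2 it was 0.11 or 0.12.

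Of the 6 glycosidases, 4 were called higher, beside 15.6% of all tested genes. Naglu, which trims heparan sulfate, had 262, 287 and 216 with BAPN against 160.0, 167 and 149 in controls, a log2 change of 0.68 (SE 0.13). Neu1, the lysosomal sialidase, differed by 0.49 (SE 0.10), Glb1, the beta-galactosidase read out in senescence staining, by 0.43 (SE 0.11), and Hexa, the alpha subunit of beta-hexosaminidase, by 0.40 (SE 0.10). In these 4 genes every BAPN library was above every control, as in 22.5% of all tested genes. Gusb, the beta-glucuronidase, and Gaa, the acid alpha-glucosidase, differed by 0.06 (SE 0.14) and 0.07 (SE 0.13), with overlapping groups, and their fold changes were below 0 without some single libraries. The call of Glb1 was lost without BAPN library 1, BAPN library 2, control library 1 or control library 3, and that of Hexa without BAPN library 2, control library 1 or control library 2.

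Npc2, the soluble protein that hands cholesterol to NPC1, had 6746, 7254 and 6114 with BAPN against 3893, 3961 and 3905 in controls, and its log2 change was 0.77 (SE 0.07; chr12:84754562-84773152). Psap, the precursor of the saposins that help degrade sphingolipids, differed by 0.37 (SE 0.06) with 19378, 19848 and 18854 against 14619, 14687 and 15529. In both genes the lowest BAPN library was above the highest control. Asah1, the acid ceramidase, had 6499, 6666 and 6049 against 5658, 5599.9 and 6001, so that BAPN library 3 and control library 3 nearly met. Its difference of 0.15 (SE 0.06) was not called. It was called with TMM (0.20) or upper quartile scaling (0.20), by DESeq2 as run here (0.19) and without BAPN library 3.

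Of the 4 pump subunits among the 35, 3 were tested and 1 was called higher, beside 15.6% of all tested genes. Atp6v0d1, the ubiquitous d subunit of the membrane sector, had 2565, 2458 and 2244 with BAPN against 1928, 1898.5 and 1935.5 in controls, without overlap, and was higher by 0.34 (SE 0.06). Atp6v1h, the regulatory H subunit of the cytosolic sector, had 1774, 1816 and 2092 against 1716, 1653.5 and 1546, a difference of 0.21 (SE 0.08) that was not called. It was called with the replicate number as a block, with TMM or upper quartile scaling (0.25 each) and by DESeq2 as run here (0.25). Without BAPN library 3 it was 0.13. Atp6ap1, an accessory subunit, had 5415, 5467 and 4943 against 4952, 5132 and 5127, with BAPN library 3 below every control and the other BAPN libraries above them. Its difference of 0.06 (SE 0.06) was not called, and was 0.10 without BAPN library 3 and 0.03 without BAPN library 2.

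The 3 MiT/TFE factors did not share a direction: Tfe3 was called higher, Tfeb lower and Mitf was not called. Tfe3 (chrX:7762560-7775202, + strand) had 1364, 1206 and 1316 with BAPN against 903, 923 and 849 in controls, a log2 change of 0.54 (SE 0.07). Tfeb (chr17:47737030-47792419, + strand) had 80.55, 78.2 and 87.0 against 136.5, 103.7 and 128.2, a log2 change of -0.58 (SE 0.15). The groups did not overlap in either gene, in opposite directions. Mitf (chr6:97807052-98021349, + strand) had 184.5, 238.4 and 298.4 against 179.3, 149.4 and 182.4. All its BAPN libraries were above the controls, but BAPN library 1 was close to them, and the difference of 0.50 (SE 0.18) was not called. It was called with the replicate block, with upper quartile scaling, by DESeq2 and without BAPN library 1, and was 0.31 without BAPN library 3. Per kilobase of exonic sequence, the level in controls was 96.3 ± 4.13 normalized counts for Tfe3, 27.5 ± 2.94 for Mitf and 21.7 ± 3.01 for Tfeb (SD, n = 3 each), so Tfe3 stood above both others beyond their spread, while the lowest Mitf library and the highest Tfeb library were nearly equal. With BAPN the levels per kilobase were 139.9 ± 8.73, 38.8 ± 9.20 and 14.5 ± 0.81. The call of Tfeb was lost without BAPN library 1, BAPN library 2 or control library 1.

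Of the 3 regulators, Fnip2 (chr3:79455974-79567796, - strand), a partner of folliculin, had 190.1, 196.5 and 173 with BAPN against 112, 118 and 102 in controls, a log2 change of 0.75 (SE 0.12), and the groups lay well apart. Rragd, the RagD GTPase, had 2682.5, 2734 and 2796 against 2484, 2438 and 2697 and differed by 0.11 (SE 0.06). Flcn, folliculin itself, had 2612, 2575 and 2646.5 against 2883, 2619 and 3088 and differed by -0.13 (SE 0.07), or -0.08 without control library 3. The groups overlapped in both, and neither was called.

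Among the 30 genes with a promoter window, the 9 with CACGTG had a median log2 change of 0.43 and 8 of them were called higher (Gaa was not). The 21 without it had a median of 0.37, with 12 called higher and 2 lower. The 4 with TCACGTGA, those printed, were all called higher, with a median of 0.42. With replicates 1 and 2 summed, Ctsa stayed called, and Ctsd, Mcoln1 and Atp6v0d1 were not called. Over all tested genes, 19.8% of the 1210 with CACGTG and 26.8% of the 224 with TCACGTGA were called higher, with medians of -0.02 and 0.07. With or without a motif, 15.6% of all tested genes were called higher. Base composition and the number of windows per gene were not matched between these sets, and no test was made.

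Within a group, replicate 3 set most of the spread of the 35 genes. With BAPN it differed by more than 10% from the mean of the other 2 libraries in 18 of the 34 tested genes, was below both in 20 and above both in 12, whereas replicates 1 and 2 were more than 10% apart in 3. In controls the numbers were 13, 13 and 13, and 5. Beside Sqstm1, the BAPN library 3 value was 1.41 times the mean of the others for Mitf, and it was 0.571 times for Cd68, 0.678 for Ctsk, 0.722 for Gusb and 0.741 for Tpp1. Comparing libraries of the same number, 27 genes were higher with BAPN in all 3 pairs, 3 were lower in all 3 and 4 were mixed.

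To place these genes, 7 further lists of the lysosomal pathway were drawn up by function, without the 35. Of the 228 genes listed, 223 were in the table and 214 were tested, and 66 (30.8%) of them were called higher and 28 (13.1%) lower, against 15.6% and 20.8% of all tested genes, with a median log2 change of 0.09. The numbers were 23 and 8 with replicates 1 and 2 summed, and 18 and 16 were called lower without BAPN library 1 and BAPN library 2. The p-values that follow are adjusted over all 13714 genes by Benjamini-Hochberg from the edgeR quasi-likelihood test.

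**Figure D3:**
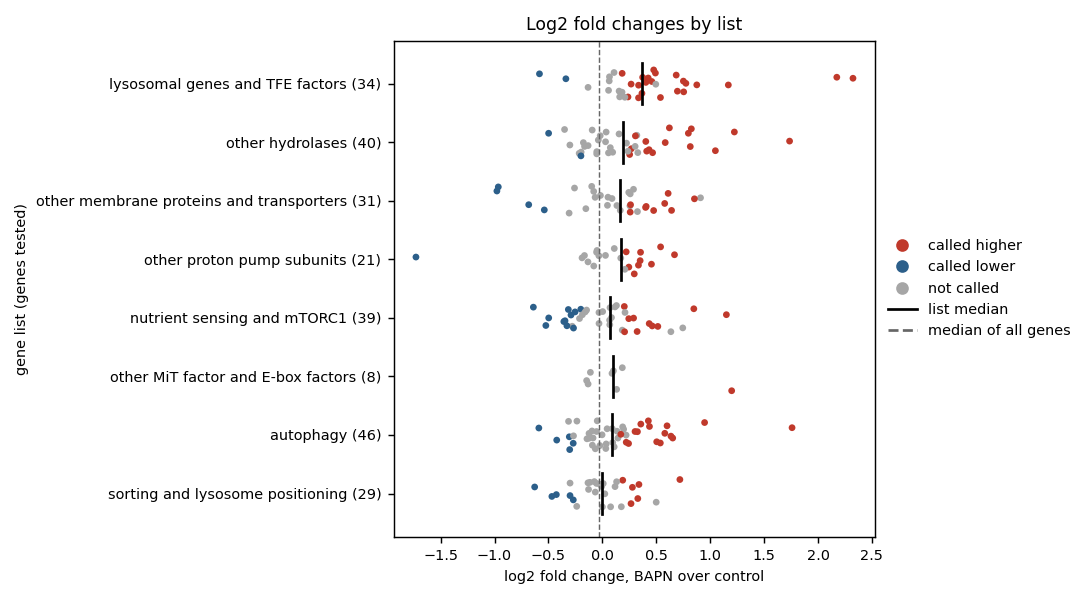
Each point is the log2 change (BAPN over control) of 1 tested gene, red if called higher, blue if called lower and grey if not called, in the 35 genes and in the 7 further lists, with the number tested in brackets. Black bars are list medians, from 0.37 for the genes described here to -0.01 for sorting and lysosome positioning. The sorting median was above 0 with TMM or upper quartile scaling and by DESeq2. The dashed line is the median of all genes at -0.03.

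Of 40 other hydrolases, 15 (37.5%) were called higher and 2 (5%) lower, beside 15.6% and 20.8% of all tested genes. Their median was 0.19. Gla, the alpha-galactosidase missing in Fabry disease, had a normalized count of 393 ± 61.8 with BAPN against 168 ± 1.34 in controls (log2 change 1.22, SE 0.13, edgeR adjusted p = 0.00056). Arsa, the arylsulfatase that degrades sulfatide, had 467 ± 41.6 and 264 ± 10.4 (0.825, SE 0.09, edgeR adjusted p = 0.00077). Galc, which degrades galactosylceramide, had 846 ± 61.3 and 565 ± 24.8 (0.58, SE 0.08, edgeR adjusted p = 0.0014). Every BAPN library was above every control in these 3 genes. The 2 called lower were Hyal2, a hyaluronidase, and Smpd1, the acid sphingomyelinase, at -0.50 (SE 0.08, edgeR adjusted p = 0.0031) and -0.20 (SE 0.06, edgeR adjusted p = 0.043), both named after their values were seen. The number called higher was 9 without BAPN library 1, BAPN library 2 or control library 1, the number called lower was 1 whichever library was left out, and the median was 0.11 without BAPN library 2.

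Of 31 other membrane proteins and transporters, 9 (29.0%) were called higher and 4 (12.9%) lower, beside 15.6% and 20.8% of all tested genes. Their median was 0.17, and 15 were called higher with the replicate block. Tmem55b, which links lysosomes to the dynein motor, had 1778 ± 163 with BAPN against 984 ± 73.9 in controls (log2 change 0.85, SE 0.09, edgeR adjusted p = 0.00050). Ctns, the cystine exporter, rose by 0.48 (SE 0.06, edgeR adjusted p = 0.0014). Laptm5, a lysosomal membrane protein best known from blood cells, had 460 ± 48.0 with BAPN against 906 ± 45.4 in controls (log2 change -0.98, SE 0.09, edgeR adjusted p = 0.00036).

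Of the 21 other genes of the proton pump, 9 (42.9%) were called higher and 1 (4.76%) lower, beside 15.6% and 20.8% of all tested genes. Their median was 0.17. Atp6ap2, an accessory subunit also known as the prorenin receptor, had 4211 ± 181 with BAPN against 2649 ± 124 in controls (log2 change 0.67, SE 0.06, edgeR adjusted p = 0.00037). Atp6v1f and Atp6v1c1 of the cytosolic sector rose by 0.46 (SE 0.05) and 0.33 (SE 0.05), with edgeR adjusted p of 0.00095 and 0.0030. The gene called lower was Atp6v1e2, the scarce form of subunit E known from testis, with 5.53 ± 1.75 against 18.5 ± 3.65 (-1.73, SE 0.33, edgeR adjusted p = 0.0059). Tcirg1, the a3 subunit of lysosomes and osteoclasts, had 3304 ± 418 and 2859 ± 270.4 (0.21, SE 0.11, edgeR adjusted p = 0.17), and was called with the replicate block (edgeR adjusted p = 0.011) and without BAPN library 3 (0.026). For the list, 5 were called higher without BAPN library 1, BAPN library 2 or control library 2, and the number called lower was 2 without BAPN library 3 and with the block, and 0 without control library 1.

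**Figure D4:**
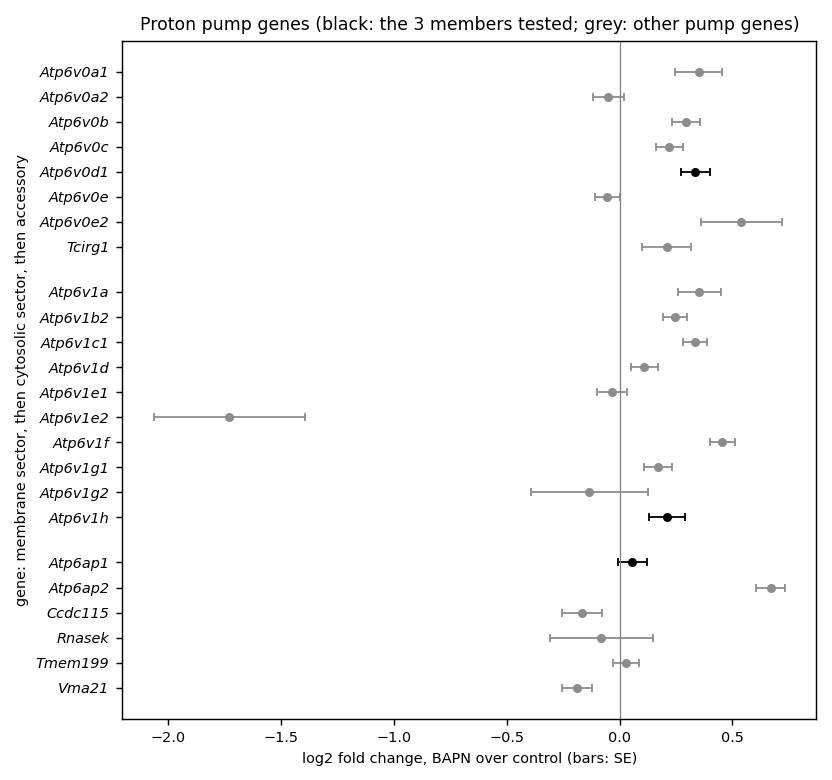
Log2 changes (BAPN over control) with their SE for 24 tested genes of the proton pump, black for the 3 that are among the 35 and grey for the others, ordered by membrane sector, cytosolic sector and accessory proteins. Atp6ap2 lies farthest to the right at 0.67, Atp6v1e2 farthest to the left at -1.73, and the 3 black points lie between 0.06 and 0.34.

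Of 39 nutrient sensing and mTORC1 genes, 10 (25.6%) were called higher and 11 (28.2%) lower, where the shares over all genes were 15.6% and 20.8%. Their median of 0.07 lay between -0.0066 (without BAPN library 3) and 0.068 (without BAPN library 2) when 1 library was left out. It was 0.11 with TMM or upper quartile scaling and by DESeq2, and 0.0090 without both libraries of replicate 3. Rragc, the RagC GTPase next of kin to Rragd, had 3458 ± 16.5 with BAPN against 2511 ± 28.5 in controls (log2 change 0.46, SE 0.05, edgeR adjusted p = 0.00069). Fnip1, next of kin to Fnip2, had 1682 ± 97.0 and 1178 ± 71.3 (0.51, SE 0.07, edgeR adjusted p = 0.0016). Sesn2, a stress-induced leucine sensor that restrains mTORC1, rose by 0.85 (SE 0.10, edgeR adjusted p = 0.000995). Mtor, the kinase itself, fell by 0.52 (SE 0.06, edgeR adjusted p = 0.0010), and Tbc1d7, a subunit of the TSC complex that inhibits mTORC1, fell by 0.64 (SE 0.08, edgeR adjusted p = 0.00105). The number called higher was 5, 5, 4 and 6 without BAPN library 1, BAPN library 2, control library 1 and control library 2, and the number called lower was 7, 5 and 7 without BAPN library 1, BAPN library 2 and control library 2.

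Tfec, the remaining MiT factor, was at or below a normalized count of 3.32 in every library and was not tested. Of 8 tested E-box factors and related regulators, 1 (12.5%) was called higher, beside 15.6% of all tested genes. Their median was 0.10, or 0.048 without both libraries of replicate 3. The gene called higher was Myc, with 1614 ± 451 against 702 ± 79.7 (log2 change 1.20, SE 0.19, edgeR adjusted p = 0.0025). Max, the partner of Myc, differed by 0.18 (SE 0.07, edgeR adjusted p = 0.072) and Usf2, another E-box binding factor, by 0.13 (SE 0.06, edgeR adjusted p = 0.11). Max was called with the replicate block (edgeR adjusted p = 0.037), without BAPN library 2 (0.047) and with TMM (0.036) or upper quartile scaling (0.034), and Usf2 with those scalings (0.046 and 0.047). The number called higher was 2 without BAPN library 2 and with the replicate block, and 3 with TMM or upper quartile scaling.

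Of 46 autophagy genes, 16 (34.8%) were called higher and 5 (10.9%) lower, beside 15.6% and 20.8% of all tested genes. Their median was 0.09. The mitophagy receptors Bnip3 and Bnip3l, which are also known as hypoxia targets, rose by 1.76 (SE 0.16, edgeR adjusted p = 0.00033) and 0.95 (SE 0.07, edgeR adjusted p = 0.00017). Bnip3 went from 1327 ± 317 to 4489 ± 400.6 and Bnip3l from 922 ± 67.0 to 1779 ± 51.4. Tecpr1, which tethers autophagosomes to lysosomes, rose by 0.64 (SE 0.07, edgeR adjusted p = 0.00078) and Nbr1, a cargo receptor related to p62, by 0.50 (SE 0.06, edgeR adjusted p = 0.00088). The number called lower was 2 without BAPN library 1 or BAPN library 2, 8 without BAPN library 3 and 3 with TMM scaling or by DESeq2.

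Of 29 genes of enzyme sorting and lysosome positioning, 6 (20.7%) were called higher and 5 (17.2%) lower. These were near the shares over all genes of 15.6% and 20.8%. Their median of -0.01 was 0.038 with TMM, 0.034 with upper quartile scaling and 0.030 by DESeq2. Gga2, an adaptor that sorts hydrolases at the Golgi, fell by 0.63 (SE 0.08, edgeR adjusted p = 0.0014), and Vps33a of the HOPS tethering complex fell by 0.43 (SE 0.06, edgeR adjusted p = 0.0018). Borcs6 of the BORC complex and the GTPase Arl8a, which move lysosomes outward, rose by 0.72 (SE 0.12, edgeR adjusted p = 0.0036) and 0.33 (SE 0.06, edgeR adjusted p = 0.0046). In this list TCACGTGA was in 6 of 23 promoter windows (26.1%), Vps33a among them, against 4 of 30 (13.3%) in the 35 genes. Over the 7 further lists it was in 18 of 178 (10.1%), beside 2.21% of the tested genes that have a window. This list had the highest share of the 7, and nutrient sensing the lowest, with 0 of 31. How the motif relates to the log2 changes was not tested. The number called lower was 3 without BAPN library 1, BAPN library 2, control library 1 or control library 2.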

How the data were processed

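RNA was sequenced in 3 libraries with BAPN and 3 without, grouped by the labels' treatment entries and titles. Per the labels' protocols, reads were single, 60 nt long and from 1 lane. Most RNA integrity numbers were above 8.1, and 2 samples that the labels do not identify were below 7.5. The submitters' processing notes name HTSeq, STAR, cutadapt, DESeq2 and the build GRCm38 (mm10). Their versions, the annotation and whether counting used strand are not stated in any source used here. The authors deposited raw counts per gene symbol, and normalized counts, a signal that is the count divided by 1 size factor per library (0.905 to 1.07). Per the file headers, the authors deposited their own log2 fold changes, signed fold changes, p-values and adjusted p-values, and a mean of normalized counts, which was not used. For the tested genes among the 35, the log2 fold changes in the authors' deposited table differ from those given here by at most 0.030. The authors' adjusted p-values were above 0.05 for Scarb2 and Ctsk, which are called here, and below it for Mitf, which is not. They were also above 0.05 for Cd63, Asah1 and Atp6v1h, which DESeq2 called as run here.

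The deposited counts of the 13714 genes whose normalized counts averaged 10 or more were fitted by quasi-likelihood (glmQLFit, glmQLFTest) in edgeR 4.0.16 under R 4.3.3, scaled by the authors' size factors, with no block and with Benjamini-Hochberg adjustment. The SE is the log2 fold change divided by the square root of its F statistic. The fit was tested on simulated data whose libraries were drawn independently, so that test does not cover the closeness of replicates 1 and 2. Rows that name no gene numbered 0, and 503 genes had no count. The 35 genes and all lists were chosen with earlier results of these data known. The genes named beside the 35 are the 4 with the smallest p in each further list, with Tfec, Rragc, Fnip1 and Tcirg1 as nearest relatives. Some genes that the rule picks are not reported here. Alternatives were TMM and upper quartile scaling, DESeq2 1.42.0, 2 other filters (none, and a mean of at least 50), a replicate block, replicates 1 and 2 summed, both libraries of replicate 3 left out, and each library left out. The DESeq2 alternative differs in its size factors and also in its fit and test. Replicates 1 and 2 differed by more than counting noise and were kept as separate libraries. The labels give both groups replicate numbers 1 to 3. Across genes, deviations from the group mean correlated between libraries of the same number at 0.184, 0.190 and 0.366. BAPN replicate 1 correlated more with control replicate 2 (0.230) than with control replicate 1 (0.184). The numbers are not said to pair the libraries, so the main fit has no block and the replicate block is an alternative. Precision is limited by 3 libraries a group. Where replicates 1 and 2 are not independent, p-values are too small.

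Positions and exonic lengths are from GENCODE M21 (GRCm38), which may not be the authors' annotation. By it, Ctsd, Ctsl and Glb1 share exonic sequence with a gene on the same strand, and Lamp1, Npc1, Ctsa, Ctsb, Ctsl, Ctsz, Hexa, Atp6v1h and Sqstm1 with one on the opposite strand. Arsa, Galc, Atp6v1e2, Rragc, Usf2, Bnip3, Gga2 and Borcs6 also share it with one on the opposite strand. Values of these genes are uncertain to that extent. Tmem55b was not found under that name in GENCODE M21, so sharing was not checked for it.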

Additional observations from a re-analysis of the deposited data

How the results depend on the processing

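With replicates 1 and 2 summed, 9 of the 34 tested genes were called higher and 0 lower (22 and 2 with all libraries separate), and 23 and 8 of the further lists (66 and 28). Without both libraries of replicate 3, 43 of the further lists were called lower. These fits have fewer libraries. Leaving out 1 library at a time gave 16 to 23 higher and 1 to 2 lower among the 34, and 44 to 70 higher and 16 to 36 lower in the further lists. Pairing the libraries by the replicate block gave 24 higher and 2 lower among the 34, and 82 and 36 in the further lists, and beyond the calls of Atp6v1h, Mitf, Tcirg1 and Max and the list counts named above it changed no other call among the 35 genes and the genes named by rule. Over single genes and settings, 810 values kept their direction and side of the threshold, 32 came to be called, 46 were no longer called and 5 reversed.

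The reversed values lay near 0. With 1 library left out, Gusb lay between -0.032 (without control replicate 3) and 0.20, and was also at -0.0055 and -0.018 without BAPN replicates 1 and 2, and Gaa lay between -0.014 (without control replicate 1) and 0.22, and was also at -0.010 without BAPN replicate 3. In the same way the median of nutrient sensing genes lay between -0.0066 (without BAPN replicate 3) and 0.068, with -0.0027 without control replicate 2, and that of sorting genes between -0.029 and 0.0060 (without control replicate 1). The median of sorting genes was 0.038 with TMM, 0.034 with upper quartile scaling, 0.030 with DESeq2 and 0.0034 without both libraries of replicate 3. The cause was not tested. TMM scaling, upper quartile scaling and DESeq2 moved the median of all genes by at most 0.045. Summing replicates 1 and 2 also ended the calls of Atp6v1c1, Borcs6 and Arl8a (edgeR adjusted p = 0.061, 0.061 and 0.076). Depth limits Atp6v0d2 and Tfec, which were below the filter.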
